A study of Mus musculus with 20 samples.

Results

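The ATF4 peaks described here were those that lay inside genes and were present both in unstressed and in stressed C2C12 cells. They were the lines of the thapsigargin peak list that overlapped a DMSO peak by at least 1 bp, with a centre inside a protein-coding gene and more than 1 kb from every protein-coding gene end. This gave 284 of the 8619 thapsigargin peaks. Of the 2932 thapsigargin peaks inside genes by the same distance rule, 9.69% overlapped a DMSO peak (95% Wilson interval 8.67% to 10.8%), against 9.25% of the whole list. The DMSO list held 803 peaks in all, and 797 of the 8619 thapsigargin peaks overlapped one. These shares thus depend on the length of the DMSO list and are no rate of persistence. The peaks were selected on the overlap of their intervals in the 2 lists, so the shares describe the selection and carry no test. The 284 peaks fell in 270 genes, each counted once under the gene that was taken as the host. In 4 cases a second gene surrounded the centre as well, so that 274 of 21631 protein-coding genes (1.27%) held such a peak.

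C2C12 is a line of mouse myoblasts, used here with the wild-type genotype. The cells had received either DMSO, the solvent, or 100 nM thapsigargin for 6 h, and ATF4-bound DNA was mapped by CUT&Tag, in which an antibody directs a transposase to the protein and the neighbouring DNA is cut out and sequenced. There were 2 replicates for each treatment, but each treatment had 1 deposited ATF4 peak list of chromosome, start and end. There was thus no replicate error and no peak height, and the read depth is unknown. Expression of muscle markers, which would check the cell type, was not analysed here. Wilson intervals cover counting error only, and none of the comparisons below has a replicate check.

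ATF4 is a bZIP transcription factor whose protein is made when phosphorylation of eIF2α slows general translation, in the integrated stress response. Thapsigargin empties the calcium store of the endoplasmic reticulum (ER) by blocking its pump and so triggers that response. ATF4 commonly pairs with C/EBP family proteins on a composite element that joins an ATF and a C/EBP recognition sequence, and its known targets include genes for amino acid synthesis and transport, tRNA charging and stress signalling.

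Lying away from the gene ends did not mean lying away from every annotated start. Many genes have more than 1 promoter, and a gene's outer end may belong to a rarely used transcript. Starts were looked up in a RefSeq table of GRCm38.p6, the assembly of mm10, which gives the bases from 250 before each start to 50 after it. Of the 284 peaks, 29 wholly contained at least 1 such window. The table holds no start for some genes, so peaks at starts missing from it are not counted. The windows of 8 of these held the composite letters TGATGNAA on either strand. The bases upstream of 7 starts are printed because they show where those letters lie in a peak that was present already in DMSO. They are the starts of Aars (chr8:111033592-111033841, plus strand), Ppp1r10 (chr17:35919022-35919271, plus), Tmem268 (chr4:63558513-63558762, plus), Pacsin2 (chr15:83432851-83433100, minus), Zbed3 (chr13:95324575-95324824, plus), Ank2 (chr3:127409059-127409308, minus) and the non-coding gene Gm36111 inside Tbc1d16 (chr11:119191701-119191950, plus). Each run reads 5′ to 3′ towards the start in the direction of transcription, and capitals mark the composite letters on either strand.
Aars: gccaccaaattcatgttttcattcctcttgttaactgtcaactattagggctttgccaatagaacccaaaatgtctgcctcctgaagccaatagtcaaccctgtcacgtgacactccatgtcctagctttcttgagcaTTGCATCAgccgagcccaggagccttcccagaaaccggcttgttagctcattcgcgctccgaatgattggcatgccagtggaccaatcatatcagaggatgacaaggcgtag
Ppp1r10: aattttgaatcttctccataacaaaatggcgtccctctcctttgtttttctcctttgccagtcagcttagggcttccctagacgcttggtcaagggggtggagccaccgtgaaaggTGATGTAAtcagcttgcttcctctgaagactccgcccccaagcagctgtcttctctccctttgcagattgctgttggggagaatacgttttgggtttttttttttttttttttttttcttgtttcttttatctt
Tmem268: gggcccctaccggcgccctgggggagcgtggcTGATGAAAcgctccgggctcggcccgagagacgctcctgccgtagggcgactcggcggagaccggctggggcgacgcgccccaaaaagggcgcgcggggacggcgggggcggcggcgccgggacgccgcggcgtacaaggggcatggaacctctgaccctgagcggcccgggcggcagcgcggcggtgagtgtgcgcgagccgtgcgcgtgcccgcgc
Pacsin2: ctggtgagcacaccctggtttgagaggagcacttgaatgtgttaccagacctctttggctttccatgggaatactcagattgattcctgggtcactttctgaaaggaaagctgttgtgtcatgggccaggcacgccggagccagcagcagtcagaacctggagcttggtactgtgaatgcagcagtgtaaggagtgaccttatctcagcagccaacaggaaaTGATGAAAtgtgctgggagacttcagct
Zbed3: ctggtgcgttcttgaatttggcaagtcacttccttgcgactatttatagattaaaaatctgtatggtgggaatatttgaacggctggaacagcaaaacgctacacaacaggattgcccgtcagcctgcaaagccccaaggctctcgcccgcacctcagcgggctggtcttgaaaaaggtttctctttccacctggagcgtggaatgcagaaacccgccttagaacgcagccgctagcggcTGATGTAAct
Ank2: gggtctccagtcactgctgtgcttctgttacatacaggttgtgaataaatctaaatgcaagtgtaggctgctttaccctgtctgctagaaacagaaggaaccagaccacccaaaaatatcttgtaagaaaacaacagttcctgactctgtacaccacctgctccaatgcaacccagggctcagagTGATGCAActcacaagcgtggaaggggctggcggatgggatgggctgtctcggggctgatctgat
Gm36111: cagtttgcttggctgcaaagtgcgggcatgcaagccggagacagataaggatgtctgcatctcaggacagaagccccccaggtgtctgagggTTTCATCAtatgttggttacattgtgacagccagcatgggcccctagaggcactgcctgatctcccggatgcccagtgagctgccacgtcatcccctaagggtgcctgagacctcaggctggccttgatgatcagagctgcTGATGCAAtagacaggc

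Aars encodes alanyl-tRNA synthetase, which charges tRNA with alanine. Its thapsigargin peak (chr8:111033087-111034549) and its DMSO peak (chr8:111033051-111034494) were almost the same interval, 1463 and 1444 bp wide. The thapsigargin peak was centred 24.5 bp from the 1 Aars start in the table, which lay well inside the gene span, with the peak centre 6040.5 bp from the outer end on that side. Composite sites began at position −112 on the opposite strand, read as TTGCATCA, and at 9, read as TTTCATCA, counting from the first transcribed base as 0. Both sites lay inside the DMSO peak.

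Ppp1r10 encodes a nuclear regulatory subunit of protein phosphatase 1. Here too the 2 intervals nearly coincided, at 1219 bp in thapsigargin (chr17:35918753-35919971) against 1125 bp in DMSO (chr17:35918803-35919927), with TGATGTAA at −134. At the start of Zbed3, a zinc finger gene, the widths were 1036 and 711 bp and TGATGTAA began at −10. Of the sites capitalised above, this one lay nearest to its start.

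At other starts the thapsigargin peak reached further on both sides. Ank2 encodes ankyrin-B, an adaptor that anchors membrane proteins to the spectrin skeleton. Its peak was centred 0.5 bp from a start that was 1 of 4 annotated for the gene, 91288.5 bp along a gene of 579 kb, and measured 1489 bp in thapsigargin against 568 bp in DMSO, with TGATGCAA at −65. The peak at a start of Tmem268 was 2029 bp wide in thapsigargin against 800 bp in DMSO, with TGATGAAA at −218. Pacsin2 encodes a membrane-bending protein of endocytosis, and its peak, 31643 bp into the gene, measured 1508 and 1064 bp, with TGATGAAA at −28. Arhgef2 encodes GEF-H1, a microtubule-bound guanine nucleotide exchange factor. Its peak lay 23190.5 bp into the gene and measured 2093 and 1069 bp, and its single composite site, TGATGAAA, began after the start, at 26. The peak inside Tbc1d16, a gene for a Rab GTPase-activating protein, stood at the start of the non-coding RNA gene Gm36111 and measured 2296 and 1174 bp. Its window held 3 composite sites, at −158, −17 and 40, more than any other window of these peaks.

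**Figure D1:**
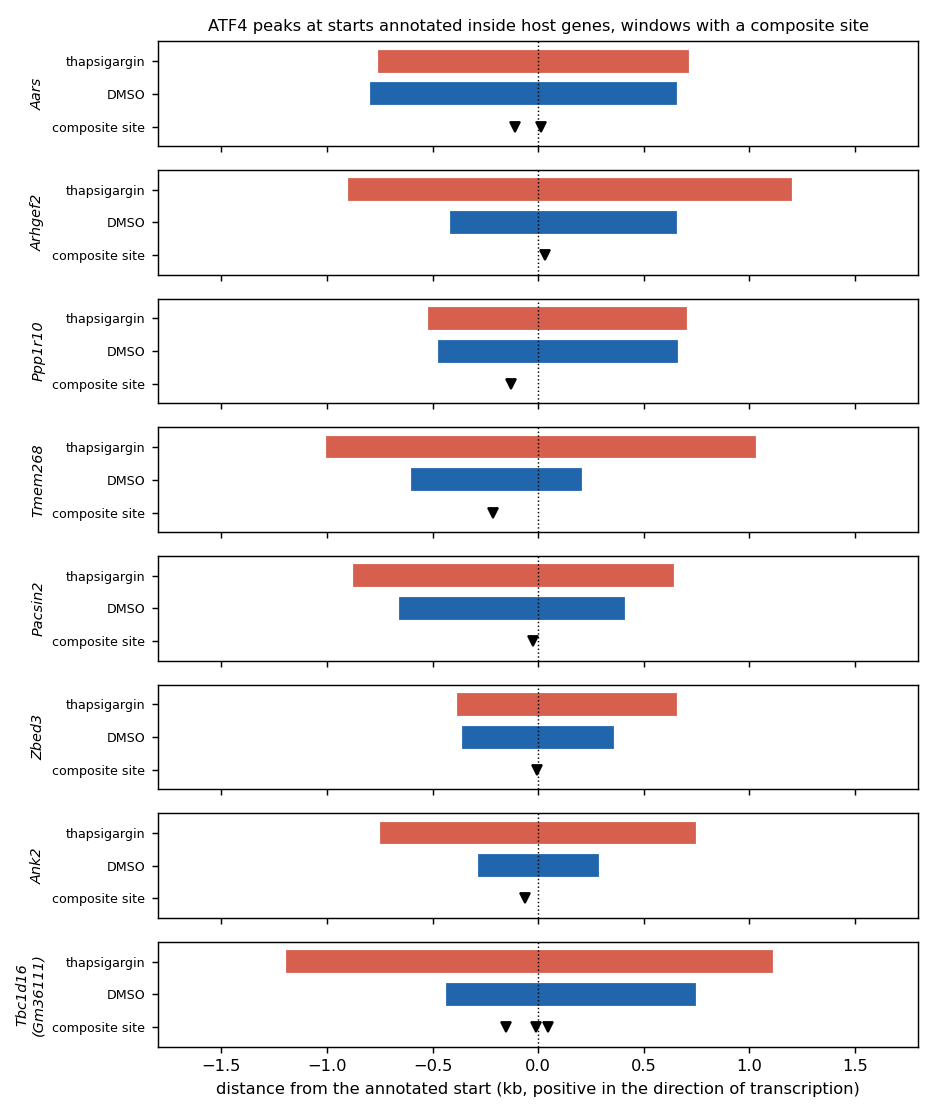
Thapsigargin (red) and DMSO (blue) ATF4 peaks around 8 annotated starts inside host genes, with composite sites as triangles. The x axis gives the distance from the start in kb, positive in the direction of transcription. All 11 composite sites lie inside the DMSO peak, and the intervals of Aars and Ppp1r10 nearly coincide while those of Ank2 and Tmem268 do not.

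Over the 8 windows there were 11 composite sites, and all 11 lay inside the DMSO interval as well as the thapsigargin interval. Each of the 8 windows lay wholly inside its DMSO peak, so every site in them did too. Windows without the composite letters were of both kinds, wholly inside the DMSO peak or not. The sites are not independent cases, since the window of Gm36111 gave 3 and that of Aars 2. The median distance from a site to the centre of the DMSO peak was 90.5 bp, the largest was 310 bp, and the median distance to the centre of the thapsigargin peak was 93 bp. With 1 window per peak, 8 of 29 peaks had the composite letters (27.6%, interval 14.7% to 45.7%). Over all 32619 start windows of the table the share was 3.87%. Among thapsigargin peaks inside genes without a DMSO peak it was 14 of 208 (6.73%, interval 4.05% to 11%), which does not overlap the interval of the peaks present in both conditions. Peaks present in both conditions at gene ends had a like share, 39 of 161 (24.2%, interval 18.3% to 31.4%), and those in thapsigargin alone at gene ends had 37 of 1405 (2.63%, interval 1.92% to 3.61%). The count of 8 windows is small, and with the stricter letters TGATGCAA it was 3 of 29 (10.3%), against 0.88% of all windows. The other kinds of peak were not counted with the stricter letters, so whether the contrast with them holds there was not tested.

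**Figure D2:**
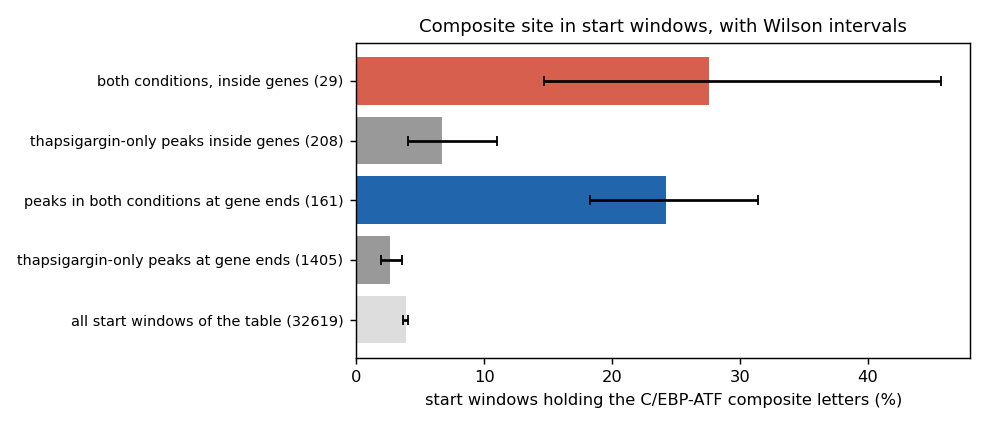
Share of start windows with TGATGNAA on either strand, in percent, by kind of peak, with 1 window per peak and the number of windows in brackets. Bars start at 0 and error bars are 95% Wilson intervals. The peaks present in both conditions stand at 27.6% inside genes and 24.2% at gene ends, and the thapsigargin-only peaks at 6.73% and 2.63%.

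Other bZIP letters were rarer in these windows. The CRE letters TGACGTCA, a site of CREB and ATF dimers, were in 0 of 29 windows, which allows a share of up to 10.3%. They were in 5 of 208 windows of thapsigargin-only peaks inside genes (2.40%) and in 1.8% of all windows. The AP-1 letters TGACTCA or TGAGTCA were in 3 of 29 (10.3%, interval 3.58% to 26.4%), against 6.73% of the windows of thapsigargin-only peaks inside genes and 5.22% of all. Those 3 were at the starts of Fcrlb, which encodes an Fc receptor-like protein, of Adh7, which encodes an alcohol dehydrogenase, and of E230016M11Rik, a non-coding gene at Gadd45a. The palindrome TTGCGCAA, bound by C/EBP dimers, was in 0 of 29 windows and in 0.184% of all windows. No site of one motif overlapped a site of another in the windows of these peaks, and each motif was searched on both strands.

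Several starts of textbook ATF4 targets were covered without any of these letters. Eprs encodes the glutamyl-prolyl-tRNA synthetase, and its peak was 1521 bp wide in thapsigargin (chr1:185362696-185364216) against 1152 bp in DMSO, centred 411.5 bp from the gene's 1 start in the table. Slc3a2 encodes the heavy chain shared by several amino acid exchangers. Its peak was 1921 bp wide against 1118 bp, centred 707.5 bp from a start. Mthfd2 encodes a mitochondrial enzyme of one-carbon metabolism, and its peak was 1736 bp wide against 1403 bp, 491 bp from a start that lies far inside the annotated gene. None of these windows lay wholly inside the DMSO peak, unlike the windows with the composite letters, and that of Slc3a2 lay outside it. Absence of the letters says only that they are not in these windows of 300 bp, and the rest of each peak was not searched.

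The widths of the 284 peaks differed between the conditions in a nearly uniform direction. The thapsigargin peak had a median width of 1373 bp (lower and upper quartiles 1182 and 1683 bp, range 687 to 3037 bp) and the DMSO peak a median of 848 bp (quartiles 681 and 1054 bp, range 291 to 2119 bp). The ratio of thapsigargin to DMSO width within a pair had a median of 1.57, with quartiles of 1.30 and 1.97. The 2 centres were a median of 97.5 bp apart. In 252 of 284 pairs (88.7%) the DMSO peak lay wholly inside the thapsigargin peak, and no thapsigargin peak of the 284 touched 2 DMSO peaks. Sorting the sides of each pair by size, the thapsigargin peak exceeded the DMSO peak by a median of 332.5 bp on the longer side and 127 bp on the shorter.

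These shapes were close to those of the other peaks found in both conditions. At gene ends the 234 pairs had medians of 1390.5 and 887.5 bp and a ratio of 1.52, and outside coding genes the 279 pairs had 1372 and 817 bp and a ratio of 1.57. The DMSO peak was inside the thapsigargin peak in 88.9% and 87.5% of those pairs. A larger contrast was that with the 2648 thapsigargin peaks inside genes that had no DMSO peak, whose median width was 1017.5 bp. In 4 classes of like size by thapsigargin width, 9 of 737 peaks of 294 to 832 bp overlapped a DMSO peak (1.22%), then 22 of 730 up to 1055 bp (3.01%), 96 of 732 up to 1334 bp (13.1%) and 157 of 733 above that (21.4%). A wider interval also has more bases with which to overlap, and the part of this in the gradient was not tested.

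**Figure D3:**
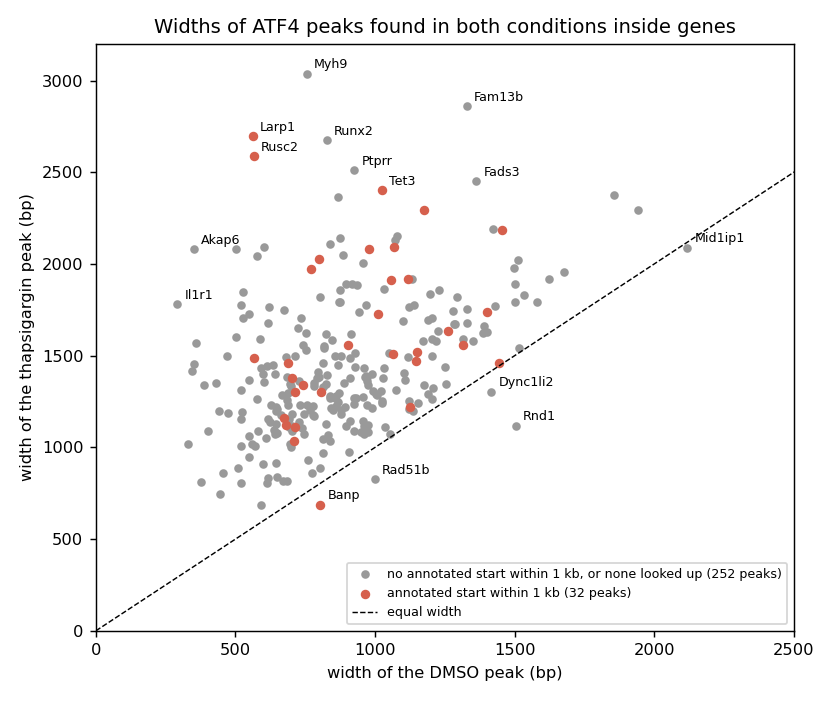
Width of the thapsigargin peak (y axis, bp) against that of the DMSO peak it overlaps (x axis, bp) for the 284 pairs. Red points have an annotated start within 1 kb of the centre and the dashed line marks equal width. Only 5 pairs lie below the line, and Myh9, at 3037 bp, is the highest point.

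The widest thapsigargin peaks lay in genes of several kinds. Myh9 encodes the heavy chain of non-muscle myosin IIA, and its peak was 3037 bp wide in thapsigargin (chr15:77798239-77801275) against 756 bp in DMSO (chr15:77800306-77801061), 39172.5 bp from a gene end. Next came Fam13b, with 2862 and 1328 bp. Larp1 encodes an RNA-binding regulator of the mRNAs for ribosomal proteins, and its peak measured 2696 bp (chr11:58008018-58010713) against 562 bp (chr11:58008234-58008795). Runx2, the master factor of bone formation, had 2674 and 827 bp, and Ptprr, a phosphatase of MAP kinases, had 2513 and 926 bp. Tet3 encodes an enzyme that oxidises 5-methylcytosine, with 2402 and 1026 bp. The peak of Foxo6, a forkhead factor, was wide in both conditions, with 2377 and 1857 bp.

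The widest DMSO peak lay in Mid1ip1, which encodes an activator of acetyl-CoA carboxylase, with 2119 bp in DMSO and 2089 bp in thapsigargin. Eif4ebp1, whose product blocks cap-dependent translation by binding eIF4E, came second with 1941 bp in DMSO and 2292 bp in thapsigargin. The DMSO peak was the wider one in 5 pairs. These were Rnd1 (1504 bp in DMSO and 1118 bp in thapsigargin), the recombination gene Rad51b (999 and 826 bp), Banp (804 and 688 bp), the dynein light intermediate chain gene Dync1li2 (1417 and 1304 bp) and Mid1ip1. At the other extreme the ratio was 6.12 in Il1r1, the interleukin-1 receptor gene, where 291 bp in DMSO became 1781 bp in thapsigargin. It was 5.93 in Akap6, which encodes an anchor of protein kinase A (351 and 2081 bp), 4.80 in Larp1, 4.58 in Rusc2 and 4.36 in Tex22. All 5 of these DMSO peaks were narrower than the lower quartile of 681 bp.

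Most of the peaks were far from the ends of genes. The distance from the centre to the nearer protein-coding gene end had a median of 19279 bp and ran from 1001.5 to 284052 bp. It was over 10 kb from the ends of the host in 191 of 284 (67.3%), and over 50 kb from any gene end in 74 (26.1%). The deepest lay in Unc5d, a netrin receptor gene, at 284 kb, followed by Enox1 at 267 kb and Cpq at 247 kb. The thapsigargin-only peaks inside genes lay at like distances, with a median of 21545 bp, 68.1% over 10 kb from any gene end (66.9% for the peaks present in both conditions) and 27.3% over 50 kb. On these measures the 2 kinds of in-gene peak were not told apart.

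The same held along the gene. Where the direction of the host was known, for 221 peaks, the centre lay at a median of 43.2% of the gene's length from its start, against 42.4% for 2090 thapsigargin-only peaks. Within 20 kb after the start of the host lay 74 of 221 (33.5%) and 35.0%. Among peaks within 5 kb of an end of the host, the nearer end was the start in 31 of 42 (73.8%) and in 73.4% of the thapsigargin-only peaks. An annotated start of any gene lay within 1 kb of the centre in 32 of 275 peaks (11.6%, interval 8.36% to 16.0%), against 12.7% of 2557. For 26 peaks that start belonged to the host, and for 16 of these the outer start of the host was more than 5 kb away. The 9 peaks on a chromosome that the start table leaves out could not be placed at all. On the other chromosomes the table also lacks the starts of some hosts. Peaks in such hosts were set against starts of other genes only. For Eif4ebp1, centred 1209 bp from a gene end, the nearest start in the table was 321157 bp away. The shares within 1 kb may therefore be too low for both kinds of peak.

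**Figure D4:**
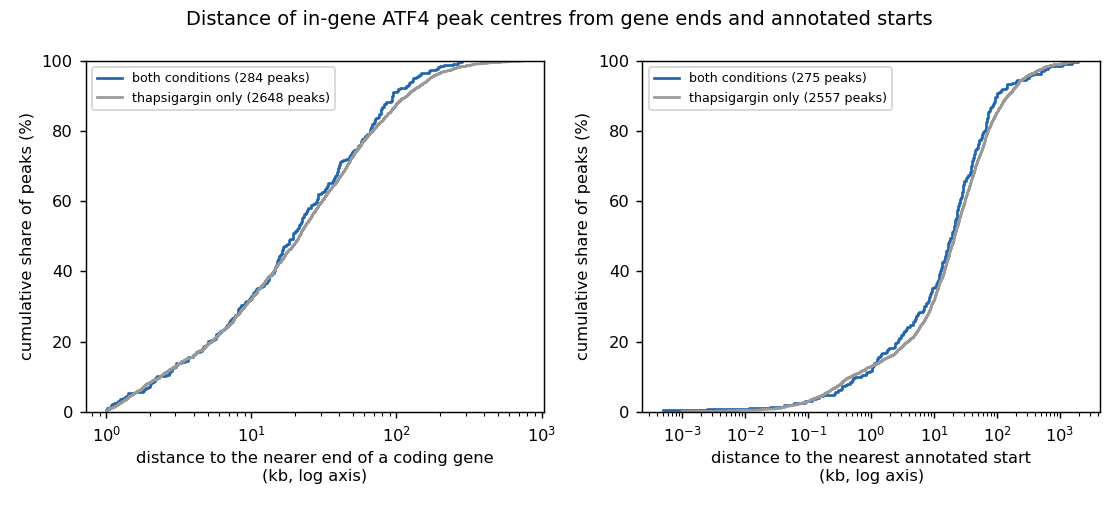
Cumulative share of in-gene ATF4 peaks (y axis, %) by distance of the centre from the nearer coding gene end (left) and from the nearest annotated start (right), in kb on log axes. Blue is for peaks present in both conditions and grey for thapsigargin-only peaks. The right panel knows only the starts in the table, which lacks those of some hosts. The curves run close together in both panels, with medians of 19279 and 21545 bp on the left.

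Host genes were long. Their median length was 93.4 kb, against 83.5 kb for the hosts of thapsigargin-only peaks and 17.3 kb for all protein-coding genes, and 129 of 270 hosts (47.8%) exceeded 100 kb, against 11.2% of all genes. Those medians count each host once. Counted per peak the order was reversed, with a median of 100.1 kb, against 107.8 kb for the thapsigargin-only peaks inside genes. The longest hosts were Immp2l, with 932 kb, Dlgap1, with 852 kb, and Tenm4, with 740 kb. A long gene offers more sequence in which a peak can fall, so a share of genes is read here beside 1.27% for all protein-coding genes and 5.4% for those over 100 kb. The shortest hosts were Gadd45a (2.31 kb), Mid1ip1 (2.34 kb), the histone variant gene H2az1 (2.44 kb) and Gdf15 (3.08 kb). In genes this short a peak can be centred inside and still be more than 1 kb from both ends only near the middle.

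Genes of the stress and amino acid programme were read in 4 lists, which hold 92 genes. The lists were written with earlier results of these data known, so their counts are descriptions and no independent support. Of these, 10 held a peak present in both conditions and inside the gene. The regulators gave 4 of 31 (12.9%), all in genes shorter than the median of 17.3 kb. Gdf15 encodes a stress-induced secreted hormone, and its peak was 1630 bp wide in thapsigargin against 1403 bp in DMSO, 1418 bp from a gene end. Gadd45a encodes a DNA damage and stress protein, with 1473 and 1146 bp at 1004.5 bp, and Vegfa encodes the vascular growth factor, with 1183 and 878 bp at 1421.5 bp. Eif4ebp1 completed the group, with its peak (chr8:27260390-27262681) centred 1209 bp from a gene end. All 4 therefore lay within 1.5 kb of an end, where 15 of the 284 peaks lay in all. For Gadd45a and Gdf15, 2.31 and 3.08 kb long, the gene length leaves hardly any room for a centre further from both ends.

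The other 3 lists gave 2 genes each, and most of their peaks lay deeper. For amino acid synthesis and one-carbon metabolism these were 2 of 23, Psph, the last enzyme of serine synthesis (1792 and 872 bp, 8534 bp from a gene end), and Mthfd2 at 8898 bp. Amino acid transport gave 2 of 18, Slc3a2 at 6308.5 bp and its partner Slc7a5, the light chain of the leucine exchanger LAT1 (1146 and 911 bp, at 9089 bp). The cytosolic aminoacyl-tRNA synthetases gave 2 of 20, Aars and Eprs. The peaks of both synthetases were centred within 1 kb of a start in the table, and so were those of Mthfd2 and Slc3a2. Psph, Mthfd2, Slc7a5 and Slc3a2 each had a further thapsigargin peak at a gene end.

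The bZIP factors gave 3 of 27 genes. Creb5, a CREB family factor, had a peak of 1282 bp in thapsigargin against 860 bp in DMSO, 50380 bp from an end. Nfe2l1, which controls proteasome genes, had 1561 and 1314 bp, and Nfe2l2, which encodes the antioxidant regulator NRF2, had 1267 and 933 bp. All 3 had a thapsigargin peak at a gene end as well. Of 18 circadian clock factors only Npas2, a partner of BMAL1, held one, with 1269 and 924 bp.

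Lists for cell shape and mesenchymal factors gave like shares, and they hold longer genes. The actin and myosin list gave 8 of 73 genes (11%), with a median gene length of 66.3 kb, and 30 of its genes held a thapsigargin-only peak. Beside Myh9 these were the talin genes Tln1 (2050 bp in thapsigargin against 887 bp in DMSO) and Tln2 (1358 and 601 bp), which link integrins to actin, and the cytoskeletal linker genes Macf1 (1778 and 519 bp) and Dst (1769 and 1430 bp). Tpm1, the tropomyosin gene, had 1634 and 1226 bp, Fhl2 had 1210 and 650 bp, and the scaffold gene Iqgap1 had 1157 and 521 bp. The thapsigargin interval was the wider in all 8, as in 279 of the 284 pairs.

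Mesenchymal and skeletal transcription factors gave 9 of 62 (14.5%), with a median length of 76.0 kb, and 20 had a thapsigargin-only peak. Runx2 held 2 of the peaks. Twist2, a bHLH factor of mesenchyme, had 1858 bp in thapsigargin against 875 bp in DMSO, Runx1 had 1778 and 968 bp, and Hivep1 had 1590 and 1204 bp. The remaining ones were Foxp1 (1493 and 681 bp), Klf3 (1180 and 702 bp), Nfix (1092 and 581 bp), Tcf12 (1076 and 649 bp) and Prrx1 (808 and 612 bp). The peak in Klf3 also lay in the shorter gene Gm38457, which was taken as its host. Prrx1, a homeobox factor of limb mesenchyme, had the narrowest thapsigargin peak of the 9.

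TGF-beta and BMP signalling gave 3 of 52 genes, by role the receptor gene Bmpr1b (2153 bp in thapsigargin against 1079 bp in DMSO), the intracellular mediator Smad3 and Ltbp1, whose product stores latent TGF-beta in the matrix. Extracellular matrix and integrins gave 3 of 74, the hyaluronan synthase gene Has2 (1866 and 1031 bp), Fbln2 (1768 and 1122 bp) and the fibrillin gene Fbn1 (1262 and 577 bp). Thapsigargin-only peaks lay in 14 and 24 genes of these lists. Receptor tyrosine kinase and MAP kinase signalling gave 5 of 78, among them the ligand gene Fgf7 (1272 and 837 bp), the adaptor gene Bcar1 (1296 and 690 bp), and the kinase genes Map3k3 (1361 and 973 bp) and Rps6ka2 (1914 and 1058 bp). Wnt and Hippo signalling gave 1 of 47, the receptor gene Ror1 (1352 and 888 bp), and insulin and mTOR signalling 1 of 43, Larp1.

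Calcium handling gave 3 of 46 genes. Mcu, the pore of the mitochondrial calcium uniporter, held 2 peaks, and Itpr1, the inositol trisphosphate receptor through which calcium leaves the ER, had 1439 bp in thapsigargin against 929 bp in DMSO. Nucb2, which encodes a calcium-binding protein, had 1234 and 733 bp. Chromatin regulators and cofactors gave 4 of 58, among them Tet3, Zmiz1 (1559 and 742 bp) and the coactivator gene Ncoa3 (1242 and 1155 bp). Nuclear receptors gave 1 of 27, Nr6a1 (1000 and 698 bp). Glucose and lipid metabolism gave 1 of 46, Hk2, the muscle hexokinase, whose DMSO peak was only 343 bp wide against 1416 bp in thapsigargin. Translation factors and RNA-binding proteins gave 1 of 45, Cpeb2 (1087 and 704 bp).

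In 5 further lists no gene held a peak of this kind. The ER chaperones, degradation factors and sensors of the unfolded protein response gave 0 of 33, which allows up to 9.09%, although 4 of those genes held a thapsigargin-only peak inside. Autophagy and lysosome gave 0 of 27 (up to 11.1%) with 6 in thapsigargin only, and the list of ubiquitin ligases and muscle atrophy genes gave 0 of 36 (up to 8.33%) with 11. That list does not hold every ubiquitin ligase, and Ubr2, which encodes one, is a host outside it. Skeletal muscle identity and sarcomere genes gave 0 of 48 (up to 6.25%), with 5 in thapsigargin only. Markers of other cell types gave 0 of 26 (up to 11.5%), with 2 in thapsigargin only. In each case the limit lies above the 1.27% of all genes, so a share near that of all genes was not detectable as different at this list size.

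Most hosts, 259 of 270, held a single peak of this kind, 8 held 2 and 3 held 3. St3gal3, which encodes a sialyltransferase, is 202.8 kb long and had 3 peaks spaced 33.2 and 36.2 kb apart, with thapsigargin widths of 1087, 1334 and 2109 bp. Ltbp1 had 3 at spacings of 88.8 and 51.5 kb, and Cpq, a carboxypeptidase gene, 3 at 96.4 and 39.6 kb. The closest pairs were those of Mcu, 13.5 kb apart (thapsigargin widths of 1384 and 1501 bp, DMSO widths of 798 and 877 bp), and of Psd3, 16.3 kb apart. Runx2 had peaks of 2674 and 1921 bp at 56.9 kb from each other, with DMSO widths of 827 and 1131 bp, so that a different one of the 2 was the wider in DMSO. The Smad3 peaks, 40.0 kb apart, measured 1673 and 1705 bp in thapsigargin but 1283 and 526 bp in DMSO. Dagla (30.4 kb apart), Thsd4 (25.8 kb), Hipk2 (81.2 kb) and Psd3 also had a different wider peak in each condition, which made 6 of the 8 genes with 2 peaks. Some of these orders rest on small differences, as with 1203 and 1229 bp in thapsigargin for Thsd4 and 961 and 992 bp in DMSO for Psd3. Whether the order changed more often than it would for unrelated widths was not tested. In Mcu and Ano6 (95.9 kb apart) the same peak was the wider in both.

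**Figure D5:**
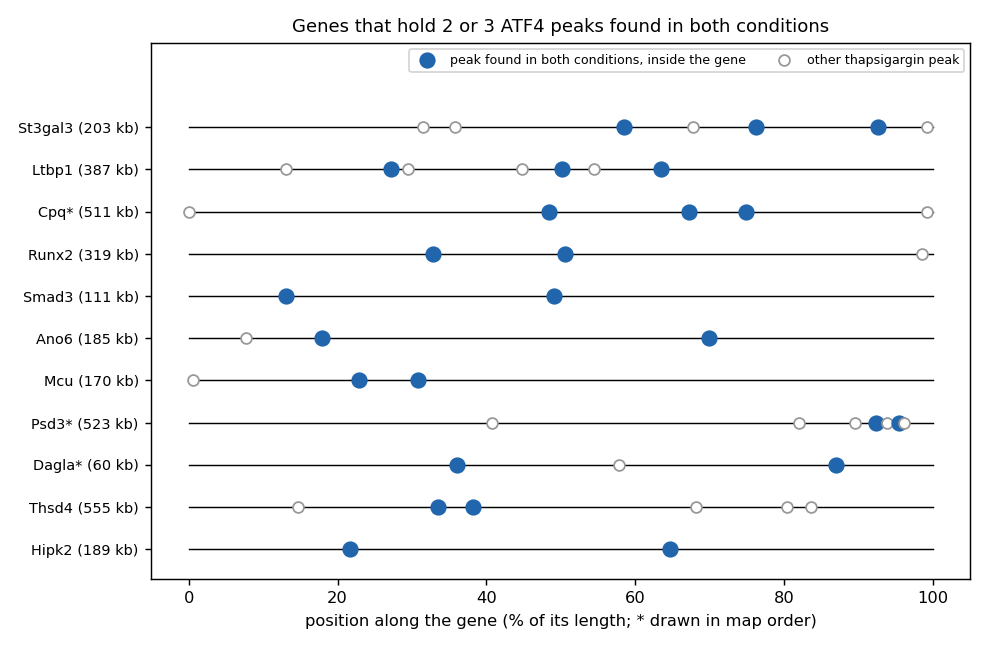
Positions of thapsigargin ATF4 peaks along the 11 genes that hold 2 or 3 peaks of this kind. The x axis gives % of gene length from the start. Genes marked * are drawn in map order because the start table gave no single direction for them. Filled points are peaks present in both conditions and open points other thapsigargin peaks. Smad3 and Hipk2 carry no open point, while Ltbp1, Psd3, St3gal3 and Thsd4 each carry 4 or more.

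Hosts often carried other thapsigargin peaks. At least 2 thapsigargin peaks lay in 145 of 270 hosts (53.7%), against 686 of 1944 hosts of thapsigargin-only peaks (35.3%). The 2 sets of hosts share genes, and a gene with more peaks has more chances of holding one of either kind. The gap was there only when each host was counted once. Counted per peak, both kinds lay in hosts with a median of 2 thapsigargin peaks, with quartiles of 1 and 3. Dlgap1 held 10 thapsigargin peaks, Dst 9, and Ltbp1, Psd3, St3gal3 and Foxp1 held 7 each. Over all 284, another thapsigargin peak lay within 10 kb in 36 (12.7%), against 13.0% of the thapsigargin-only peaks inside genes.

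A thapsigargin peak within 1 kb of an end of the host was present in 61 of 270 hosts (22.6%, interval 18% to 27.9%), against 329 of 1944 hosts of thapsigargin-only peaks (16.9%, interval 15.3% to 18.7%) and 15.1% of all protein-coding genes. The intervals of the first 2 overlap. A DMSO peak at the end was rare, in 7 of 270 hosts (2.59%), against 28 of 1944 (1.44%) and 1.29% of all genes. For 4 of the 7, Phf10, Serpinb9d, Fcrlb and Gadd45a, this was the DMSO partner of the in-gene peak itself, centred 846, 946.5, 964.5 and 836 bp from the end. Only 3 hosts thus had separate DMSO peaks inside the gene and at its end. In Mthfd2 the DMSO end peak was 535 bp wide (chr6:83325990-83326524) and the thapsigargin one 1191 bp (chr6:83325699-83326889), at the outer start. Nfe2l1 had end peaks of 331 and 942 bp, and Ubr2, a ubiquitin ligase gene of the N-degron pathway, had 1232 and 1549 bp.

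None of the 284 intervals covered a protein-coding gene end. The end of a non-coding gene of any type, pseudogenes left out, was covered by 9 (3.17%). The share was 3.10% for the thapsigargin-only peaks inside genes. The hosts of the 9 were Rusc2, Tet3, Foxo6, Tbc1d16, Ccnd2, Ano6, Gadd45a, Amz1 and Atxn2l. Ccnd2 encodes cyclin D2, and its peak stood at the start of 9330179D12Rik. At the distance limit itself, the nearest peaks left out were in Jdp2 (959.5 bp), Trim47 (970.5 bp) and Vars (987 bp), and the nearest kept were in Fcrlb (1001.5 bp), Gadd45a (1004.5 bp) and Igsf23 (1018 bp).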

How the data were processed

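The study listed 20 CUT&Tag samples, of which the 4 for ATF4 were used, in 2 groups taken from the sample titles, DMSO and thapsigargin. Nothing in the labels says whether replicates were separate cultures. The deposited ATF4 files give only peak start and end per list, and the submitters' processing notes name Trim Galore 0.6.10, Bowtie2, MACS2 2.2.7.1 and mm10. The control library, the peak threshold and how replicates were combined are not given in the sources used, and peak numbers and widths can depend on each as well as on depth, which is unknown.

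Peaks overlapped when they shared at least 1 bp. Gene ends came from a RefSeq gene table (GRCm38.p6, 21631 protein-coding genes, no strand or exons, so exon and intron were not told apart), and starts, strand and sequence from a RefSeq table of 32619 start windows covering 17274 of those genes. Coordinates count from 1. The planned motif search of peak centres and whole peaks was replaced by these windows, since no genome sequence was used here. Members of 24 gene lists matched the table for 1023 of 1024 entries. Named peaks were the 20 widest in thapsigargin, those in listed genes, those at annotated starts, those in genes with 2 or more and the extremes of each measure, though not every one is described and some results are not reported here. The peaks and lists were chosen with earlier results of these data known. With 1 list per condition there was no test, and shares carry 95% Wilson intervals. For a count of 0, the share it allows was instead given as 3 counts over the number of windows or genes searched. Overlap, gene-end and motif code was tested on simulated data. Alternatives were other overlap rules, distance limits, list parts and motif letters. The software was Python 3.11.15, pandas 2.3.3, numpy 2.4.6, matplotlib 3.10.9 and scipy 1.17.1. The other 8 groups were not used here.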

Additional observations from a re-analysis of the deposited data

How the results depend on the processing

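Of 84 alternative values 19 moved. Of the rest, 16 were counts of peaks or hosts that stayed within 1.5 times the count reported, and 49 were other values that stayed within the interval of the value reported. When centres had to lie within 100 bp of each other there were 145 peaks in 139 hosts. The share of in-gene peaks overlapped was then 4.95%, the median width 1278 bp, the width ratio 1.49 and the share of hosts with a thapsigargin end peak 28.8%. With the widest 50% of each list there were 138 peaks in 136 hosts, a median width of 1519 bp, a ratio of 1.34, 60.1% over 10 kb from host ends and 13.2% of hosts with a thapsigargin end peak. With a gene-end limit of 500 bp those 2 shares were 57.8% and 34.0%, and hosts with a DMSO end peak were 16.4% in place of 2.59%. End peaks were still counted within 1 kb there. A peak newly let in between 500 bp and 1 kb could thus be an end peak of its own host, so the rise follows in part from the setting. At limits of 3 and 5 kb the share over 10 kb was 77.0% and 83.4%, a rise built in because these limits take out peaks near gene ends. Measuring to the peak edge gave 1.19% of hosts with a DMSO end peak. The composite share was 10.3% with TGATGCAA, and between 23.5% and 30.4% under 3 other choices of window. The 4 motif alternatives were chosen after seeing the data. The planned searches of peak centres and whole peaks were not run.

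No paired analysis was possible because the deposited ATF4 lists, 1 per condition, carry no replicate columns, and leaving out a replicate was not possible for the same reason. Depth, threshold and binding cannot be told apart as sources of a wider or a missing peak, and a DMSO peak below the authors' threshold would count here as absent.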
